A study of Anthurium andraeanum with 18 samples.

Results

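Leaves of 2 plant materials of the ornamental aroid Anthurium andraeanum, named MH and Ken in the sample titles, were compared at 25 °C without heat. The members are the 3 MH control libraries and the 3 Ken control libraries, 6 of the 18 libraries of the series, over all genes of the deposited expression table. Both groups came from full-flowering plants in growth chambers with 12 h of day and 12 h of night, kept at 25 °C from start to end. The other 12 libraries are leaves of the same materials after 3 days at 38/33 °C (day/night) and then after 3 days at 40/35 °C, 3 libraries for each material and regime. No genotype, treatment agent or cultivar name is given for either material in the sources used here, and neither is the day or hour at which the controls were sampled. Replicates are described as biological, but no source used here ties each to its own plant, so the tests below measure only how far these libraries spread. Total RNA was extracted with Trizol and sequenced as Illumina libraries.

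A mature leaf is mostly mesophyll, whose messenger RNA is dominated by Rubisco and the light-harvesting proteins, wrapped in an epidermis that lays down wall and cuticle. Leaves also keep small pools of heat shock proteins, antioxidant enzymes and immune receptors without any stress, and 2 lines of a species can differ in the size of these pools or in which variant of a gene they carry. Gene names below come from database descriptions of entries assembled from the reads, so an entry can be a whole gene, a fragment or one variant of a gene. Every role is known from other plants, mostly Arabidopsis thaliana and rice.

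Each control library held 18,927,391 to 22,867,236 estimated counts. In log2 CPM over the 5000 most variable genes, the first principal component held 89.4% of the variance and separated the materials, and the second, with 5.44%, spread the MH libraries from 36.9 in replicate 1 to -34.0 in replicate 3. The biological coefficient of variation was 0.368 within MH and 0.199 within Ken, so Ken values were the tighter. The leaf label was checked against mesophyll markers, which summed to 96,764 to 104,917 TPM (a level per transcript length, scaled to the same total in each library) in MH and 74,099.8 to 84,407 TPM in Ken. Of 36 tested mesophyll markers, 2 were higher in MH and 1 in Ken. For leaf mesophyll markers the counts in MH and Ken were 1 and 1 without any 1 of the 6 libraries, 2 and 2 with DESeq2, 12 and 4 with the controls fitted alone.

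MH and Ken differed in 15,276 of 70,022 tested genes (21.8%), where a gene is called if edgeR's quasi-likelihood test gives it a Benjamini-Hochberg (BH) adjusted p under 0.05. Of these, 7,102 were higher in MH (10.1% of tested genes) and 8,174 in Ken (11.7%). Among the 29,143 tested genes with a database description, 3,238 were higher in MH (11.1%) and 4,711 in Ken (16.2%). These shares (27.3% in both directions together) are the background for the main-test counts of every gene group below. They are not the background for counts given under other fits. Among the 40,879 tested genes without a description 17.9% were called, 9.45% higher in MH and 8.47% in Ken. The differences were large: 12,666 calls were at least 2-fold, 9,020 at least 4-fold and 4,848 at least 16-fold. In 95.4% of called genes the 3 libraries of one material lay above all 3 of the other, against 37.1% of all tested genes. Calls were made on these same libraries and favour such genes, so the 95.4% is no separate result. The tested set includes genes seen mainly after heat, 4,366 of which had no count in any control library. Of the 35,056 genes that pass the count filter in the controls alone 33.2% were called, and with the controls fitted by themselves 45.9% of 35,129 genes. That fit called 8,110 genes higher in MH and 8,005 in Ken, so list counts from it belong beside this larger share. With edgeR's other scaling (RLE size factors) the median gene above 1 CPM shifted by 0.11 on the log2 scale toward MH, and the share of calls that were higher in MH moved from 46.5% to 53.7%. Among called described genes that share was 40.7% in the main test, 45.0% with library totals and 49.8% under RLE scaling. DESeq2 gave 49.6% and the controls fitted alone 47.9%. The larger Ken share in the background thus depended on the scaling and the fit. Differences are MH minus Ken on the log2 scale ± SE, fitted on counts, while levels are TPM. Among 10,207 described genes with a control mean of at least 10 TPM and over 1 TPM in both materials, the TPM ratio and the fitted difference were apart by over 1 on the log2 scale for 136 (1.33%), and 34 of the 3,330 called genes among the 10,207 had a TPM ratio of the opposite sign.

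Many of the largest differences were presence against absence of an entry. With 0 counts in all 3 libraries of the other material, 1,658 called entries were seen in MH and 1,393 in Ken, of which 136 and 81 reached 10 TPM. Assembly clusters, the sets of related entries that the assembler groups together, held called entries in 12,239 cases, and 1,008 of these were called in both directions at once. Summed over the cluster, 524 of the 1,008 still differed between the materials. Where the sum over a description ran opposite to a named entry, that sum is given beside the entry. The naming rule took genes without overlap between the materials where any qualified, so their lack of overlap is no separate result. This holds wherever it is mentioned below for such a gene. Among the genes named below, summed over the assembly cluster the calls of CRF4, CYP93A2, INVE, LHCA5, NAKR3, PYL8, RPS27AA, SEOA, TRINITY_DN55002_c0_g1 and ZSS1 were lost, and summed over the description the calls of A1, GL2, HSP90-5, PYL8, TRINITY_DN56918_c0_g2, TRINITY_DN59189_c0_g1 and XTH30 were lost.

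**Figure D1:**
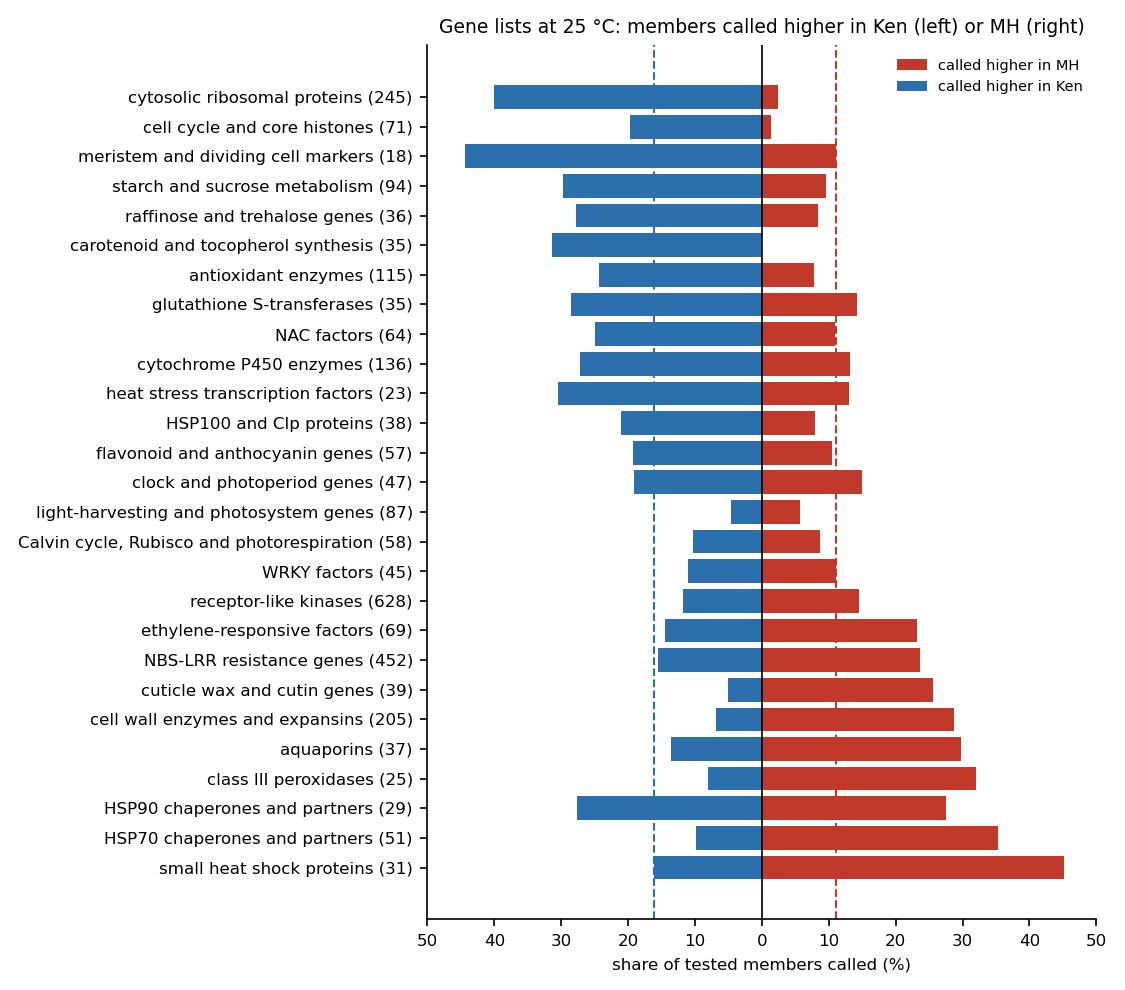
Share of tested members of each gene list that was called higher in Ken (left, blue) or higher in MH (right, red) at 25 °C, in percent, with the number of tested members in brackets. Dashed lines mark the background over described genes, 11.1% for MH and 16.2% for Ken. Small heat shock proteins reach 45.2% on the MH side and cytosolic ribosomal proteins 40.0% on the Ken side.

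In the photosynthetic machinery a large single difference was in a Rubisco small chain entry, SSU26 (TRINITY_DN50220_c0_g3, 330 bases), which encodes the small subunit of the carbon-fixing enzyme. It stood at 16,047, 14,931 and 15,208 TPM in MH and 99.5, 49.9 and 86.6 TPM in Ken (log2 difference 8.59 ± 1.04, adjusted p = 7.65e-05). The MH libraries were close to each other and the groups lay far apart. The main Rubisco small chain entry in the table, TRINITY_DN40113_c2_g3, ran the other way without a call, at 15,973 ± 312 TPM in MH and 23,830.0 ± 2,237 TPM in Ken (log2 difference -0.61, adjusted p = 0.563). All 5 small chain entries together summed to 32,379.7, 30,761 and 30,971 TPM in MH and 24,729, 21,360.0 and 25,645 TPM in Ken. That sum was 1.31 times as high in MH. In these bulk leaves, a different number of cells of a type and a different amount of RNA per cell cannot be told apart.

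Chlorophyll a-b binding proteins, the antenna proteins that hold chlorophyll, summed to 108,685, 90,020.1 and 106,203 TPM in MH and 58,133, 60,291 and 72,782 TPM in Ken over 34 entries. All MH sums lay above all Ken sums, yet only 3 of 26 tested entries were called higher in MH and none in Ken. The abundant entries missed the threshold one by one: TRINITY_DN62316_c1_g8, the highest, stood at 26,331 ± 2,916 TPM in MH and 16,210.5 ± 2,739.8 TPM in Ken (adjusted p = 0.775). The 3 that were called were minor. LHCA5 of photosystem I, for one, stood at 68.2, 68.3 and 73.5 TPM in MH and 54.4, 55.2 and 60.9 TPM in Ken (log2 difference 0.48 ± 0.17, adjusted p = 0.0425). LHCA5 lost its call without any 1 of the 6 libraries (log2 differences 0.38 to 0.55), and also without a filter on low counts. For the whole list of light-harvesting and photosystem genes, 5 of 87 tested members were higher in MH and 4 in Ken in the 6-group model, with a median difference of 0.16. For light-harvesting and photosystem genes the counts in MH and Ken were 3 and 4 without Ken replicate 1, 2 or 3 or MH replicate 3, 3 and 5 with DESeq2, 4 and 4 without MH replicate 1. Other counts were 4 and 5 without MH replicate 2, 34 and 12 with the controls fitted alone. In the fit of the controls alone, heated libraries do not enter the spread, and 45.9% of all its genes were called. The psbC entry, the chloroplast-encoded CP43 core protein of photosystem II, was higher in Ken, with 8.47, 5.68 and 5.13 TPM in MH and 22.2, 20.4 and 22.4 TPM in Ken (log2 difference -1.79 ± 0.18, adjusted p = 2.25e-07).

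Chlorophyll metabolism split by enzyme. CAO, chlorophyllide a oxygenase, which makes chlorophyll b, was higher in MH, with 80.3, 102 and 95.8 TPM in MH and 21.7, 22.1 and 23.02 TPM in Ken (log2 difference 2.06 ± 0.31, adjusted p = 1.15e-04). PAO, pheophorbide a oxygenase, which opens the chlorophyll ring during breakdown, was higher in Ken, with 16.6, 12.99 and 11.5 TPM in MH and 40.2, 40.98 and 33.2 TPM in Ken (log2 difference -1.49 ± 0.25, adjusted p = 1.96e-04). Neither gene's libraries overlapped between materials, as the naming rule required. The 3 entries of each description summed the same way, to 293 ± 35.1 TPM in MH and 61.7 ± 3.87 TPM in Ken for CAO and to 29.8 ± 6.50 TPM in MH and 82.2 ± 10.5 TPM in Ken for PAO. Of the list as a whole, 9 of 52 tested members were higher in MH and 6 in Ken, with a median of 0.02. For chlorophyll synthesis and breakdown the counts in MH and Ken were 5 and 5 without Ken replicate 2 or 3, 15 and 15 with the controls fitted alone. In the Calvin cycle and photorespiration list 5 of 58 tested members were higher in MH and 6 in Ken, below the background in both directions. For Calvin cycle, Rubisco and photorespiration the counts in MH and Ken were 4 and 4 without Ken replicate 1, 5 and 5 without Ken replicate 3 or MH replicate 2, 6 and 3 without MH replicate 3. Other counts were 6 and 5 with RLE scaling or with TMM factors of described genes, 6 and 6 with library totals, 7 and 6 with DESeq2. Further counts were 11 and 13 with the controls fitted alone. A cytosolic phosphoglycerate kinase, TRINITY_DN56107_c0_g1, a sugar-phosphate enzyme, was higher in Ken, with 37.1, 45.8 and 41.5 TPM in MH and 80.95, 73.9 and 78.6 TPM in Ken (log2 difference -0.92 ± 0.15, adjusted p = 9.71e-05). Rubisco activase, which keeps Rubisco active, had 0 calls in 3 tested entries and summed to 14,219, 14,172 and 16,107 TPM in MH and 12,664, 12,536 and 10,982 TPM in Ken. Of carotenoid and tocopherol genes 0 of 35 tested members were higher in MH and 11 in Ken in the 6-group model, among them lycopene beta cyclase at 22.2 ± 0.649 TPM in MH and 31.4 ± 1.597 TPM in Ken (log2 difference -0.81, adjusted p = 0.00152) and the carotenoid cleavage enzyme CCD at 255, 227 and 250.5 TPM in MH and 383, 363 and 346 TPM in Ken (log2 difference -0.73 ± 0.16, adjusted p = 0.00198). The list's median difference was -0.03, and its sums were 1,960, 1,752 and 1,728 TPM in MH and 2,279, 2,106 and 2,151 TPM in Ken, without overlap. Phytoene and lycopene enzymes overlapped, at 672, 604 and 573 TPM in MH and 584, 563 and 599 TPM in Ken, with 0 of 12 tested entries higher in MH and 4 in Ken. For carotenoid and tocopherol synthesis the counts in MH and Ken were 0 and 6 without MH replicate 3, 0 and 7 without Ken replicate 1 or 3 or MH replicate 2, 1 and 10 with RLE scaling or with TMM factors of described genes. Other counts were 1 and 11 with DESeq2, 8 and 10 with the controls fitted alone.

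**Figure D2:**
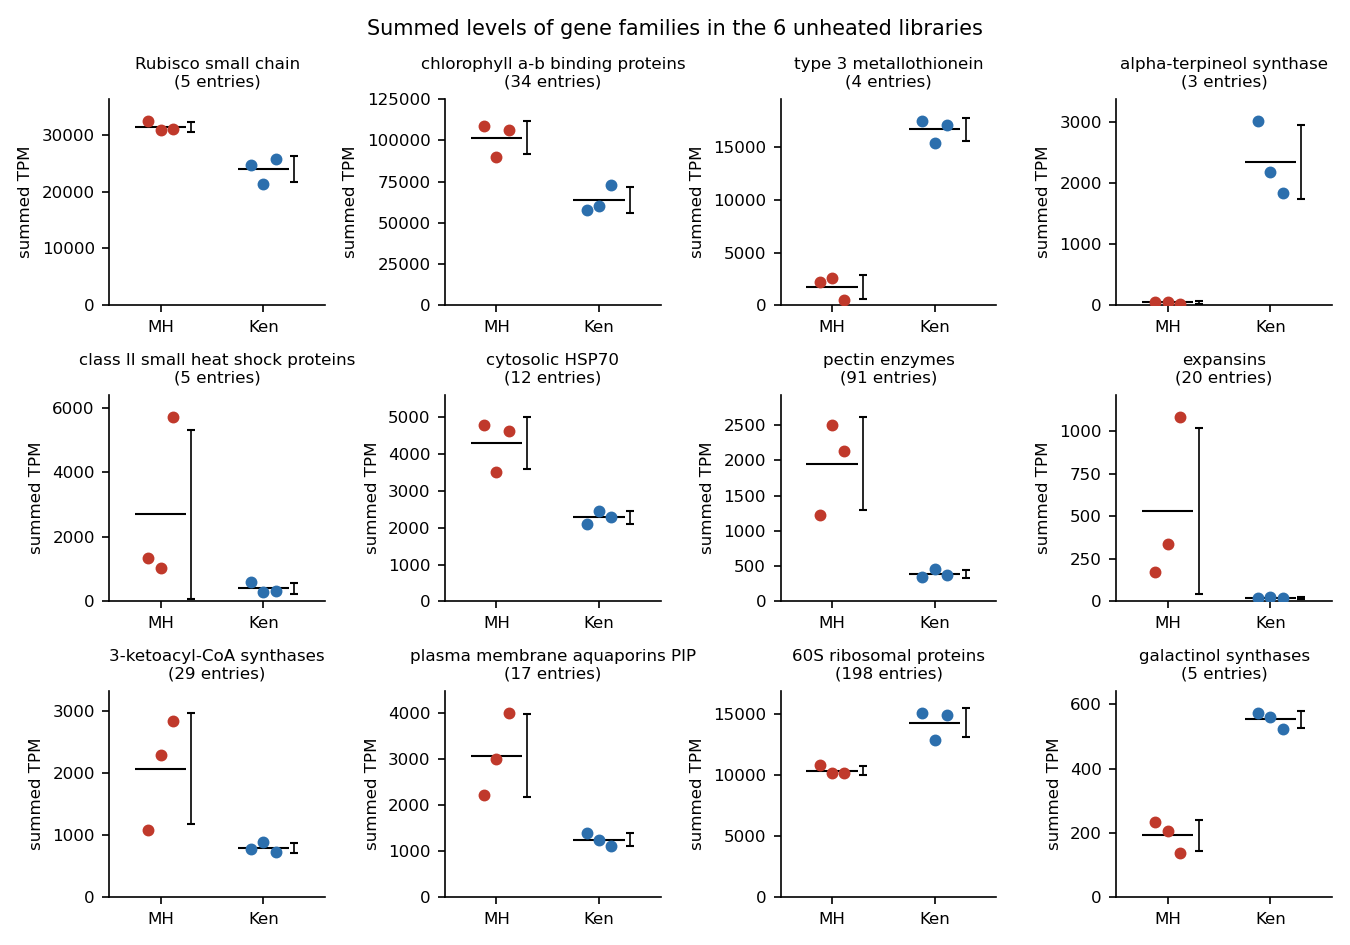
Summed TPM of 12 gene families in each of the 6 unheated libraries (points; vertical axes start at 0), with the mean of 3 libraries (line) and its SD (bar beside the points). Antenna, HSP70, pectin enzyme, aquaporin and 3-ketoacyl-CoA synthase sums are higher in every MH library, metallothionein, alpha-terpineol synthase, ribosomal protein and galactinol synthase sums in every Ken library, and MH replicate 3 stands above the other MH libraries for expansins and class II small heat shock proteins.

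Heat protection genes already differed without heat. Small heat shock proteins, chaperones that hold unfolding proteins, had 14 of 31 tested members higher in MH (45.2%) and 5 in Ken, with a median difference of 1.41. Their summed level was 4,580.4, 3,035 and 16,246 TPM in MH and 4,329.5, 2,077 and 2,273 TPM in Ken. MH replicate 3 was far above the other libraries, and MH replicates 1 and 2 overlapped the Ken range. Without MH replicate 3 the count was 10 higher in MH and 7 in Ken, with a median of 0.68. For small heat shock proteins the counts in MH and Ken were 9 and 7 with the controls fitted alone. Class II members, cytosolic proteins, summed to 1,333, 1,037 and 5,709 TPM in MH and 609, 304 and 307 TPM in Ken, every MH library above every Ken library, and 4 of 5 were called higher in MH. Class I members, also cytosolic, overlapped at 2,492, 1,459.9 and 7,546 TPM in MH and 2,189, 1,231 and 1,305 TPM in Ken, with 6 of 17 called higher in MH and 3 in Ken.

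HSP17.4B, a class III small heat shock protein, stood at 132, 117 and 259 TPM in MH and 28.1, 14.5 and 17.99 TPM in Ken (log2 difference 2.94 ± 0.39, adjusted p = 8.18e-05). HSP18.1, a class I member, was the reverse, with 41.3, 56.8 and 43.6 TPM in MH and 139, 153 and 135 TPM in Ken (log2 difference -1.61 ± 0.20, adjusted p = 5.09e-06). The groups overlapped for neither gene, as the naming rule required. A second HSP18.1 entry was higher in MH, with 439 ± 156 TPM in MH and 161 ± 9.61 TPM in Ken (adjusted p = 0.00625), so the 2 entries summed to 486 ± 148 TPM in MH and 304 ± 6.44 TPM in Ken, a difference in the other direction.

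HSP70 chaperones and their partners, which refold proteins, had 18 of 51 higher in MH (35.3%) and 5 in Ken. The cytosolic heat shock cognate 70 kDa entries moved together: 10 of 12 were higher in MH and 0 in Ken, and they summed to 4,792, 3,507 and 4,627 TPM in MH and 2,098, 2,459 and 2,302 TPM in Ken. The most abundant of them, TRINITY_DN62961_c1_g1, stood at 1,254 ± 281 TPM in MH and 604 ± 71.2 TPM in Ken (log2 difference 1.39, adjusted p = 1.83e-05). For HSP70 chaperones and partners the counts in MH and Ken were 11 and 1 without Ken replicate 3 or MH replicate 3, 11 and 3 without Ken replicate 2, 13 and 2 without Ken replicate 1. Other counts were 14 and 2 without MH replicate 1, 17 and 1 without MH replicate 2, 20 and 2 with TMM factors of described genes. Further counts were 21 and 2 with DESeq2 or with RLE scaling. BAG2, a co-chaperone that binds HSP70, was higher in MH, with 8.99, 11.6 and 22.6 TPM in MH and 0.42, 0.60 and 0.04 TPM in Ken (log2 difference 5.34 ± 0.66, adjusted p = 5.80e-06). Of the 3 entries of mitochondrial HSP70, TRINITY_DN52413_c0_g2 was higher in Ken, with 15.6, 16.7 and 13.6 TPM in MH and 29.8, 28.7 and 26.1 TPM in Ken (log2 difference -0.90 ± 0.15, adjusted p = 1.73e-04), while the 3 together gave no call, with 49.1 ± 1.73 TPM in MH and 55.99 ± 3.95 TPM in Ken (adjusted p = 0.695).

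The larger chaperones were divided. HSP90 chaperones and partners gave 8 of 29 in each direction. For HSP90 chaperones and partners the counts in MH and Ken were 5 and 7 without Ken replicate 3, 6 and 4 without Ken replicate 1, 6 and 5 without MH replicate 1. Other counts were 7 and 4 without MH replicate 2, 8 and 4 with DESeq2, with RLE scaling or with TMM factors of described genes, 8 and 5 with library totals. Endoplasmin, the HSP90 of the endoplasmic reticulum, was higher in MH, with 167, 192 and 364 TPM in MH and 90.5, 76.4 and 70.3 TPM in Ken (log2 difference 1.61 ± 0.24, adjusted p = 8.55e-05). The MH libraries all lay above the Ken libraries for this gene, a condition of the naming rule. Chloroplast HSP90-5 (TRINITY_DN32729_c0_g1) was higher in Ken, with 19.7, 23.6 and 20.6 TPM in MH and 41.97, 68.9 and 46.9 TPM in Ken (log2 difference -1.05 ± 0.19, adjusted p = 2.40e-04), but its 5 entries summed to 543 ± 102 TPM in MH and 770.2 ± 70.2 TPM in Ken without a call (adjusted p = 0.282). CLPB1, the HSP100 disaggregase needed for heat tolerance in Arabidopsis, was higher in MH, with 247, 94.5 and 333 TPM in MH and 31.4, 35.9 and 24.9 TPM in Ken (log2 difference 2.64 ± 0.47, adjusted p = 0.00135), whereas the chloroplast protease subunit CLPR1 was higher in Ken, with 147, 106 and 103 TPM in MH and 217, 191 and 204 TPM in Ken (log2 difference -0.85 ± 0.15, adjusted p = 2.73e-04). For DnaJ proteins, the J-domain partners of HSP70, 9 of 84 tested members were higher in MH and 13 in Ken, near the background. For DnaJ proteins the counts in MH and Ken were 4 and 11 without Ken replicate 2, 5 and 10 without MH replicate 3, 5 and 12 without Ken replicate 3. Other counts were 12 and 11 with RLE scaling or with TMM factors of described genes, 13 and 13 with DESeq2, 19 and 18 with the controls fitted alone.

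Heat stress transcription factors, which switch these genes on, were called in both directions: 3 of 23 tested members were higher in MH and 7 in Ken. For heat stress transcription factors the counts in MH and Ken were 1 and 6 without Ken replicate 2 or 3, 1 and 7 without MH replicate 1, 4 and 6 with RLE scaling. Other counts were 5 and 5 without MH replicate 2. HSFA2B, an amplifier of the heat response, was higher in MH, with 71.9, 89.7 and 243 TPM in MH and 1.18, 1.43 and 0.64 TPM in Ken (log2 difference 6.97 ± 0.79, adjusted p = 4.16e-05). The lowest MH library was above the highest Ken library by a wide margin, and MH replicate 3 was the highest. With its second entry, A-2b summed to 313 ± 114 TPM in MH and 118 ± 11.7 TPM in Ken. HSFA1, the class of master regulators in Arabidopsis and tomato, was higher in Ken, with 8.42, 7.54 and 6.89 TPM in MH and 13.2, 11.8 and 12.9 TPM in Ken (log2 difference -1.62 ± 0.24, adjusted p = 3.47e-05). Its 3 entries summed to 13.8 ± 1.91 TPM in MH and 31.3 ± 1.26 TPM in Ken, in the same direction.

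A large contrast among abundant transcripts was in type 3 metallothioneins, small cysteine-rich proteins that bind copper and zinc. A short entry of 240 bases, TRINITY_DN48994_c0_g2, stood at 107, 97.9 and 48.2 TPM in MH and 8,735, 6,287 and 8,434 TPM in Ken (log2 difference -6.53 ± 0.54, adjusted p = 1.90e-06). A second entry, TRINITY_DN41871_c2_g1, stood at 266, 278 and 183 TPM in MH and 6,992, 5,193 and 6,992 TPM in Ken (log2 difference -4.87 ± 0.51, adjusted p = 1.96e-05). An abundant entry with no known function, TRINITY_DN43891_c1_g1, was also among the strongest Ken transcripts at 585, 474 and 484 TPM in MH and 1,485, 1,189 and 1,502 TPM in Ken (log2 difference -1.26 ± 0.20, adjusted p = 6.26e-05). In both metallothionein entries, every Ken library was far above the highest MH library. All 4 entries together summed to 2,214, 2,606 and 501 TPM in MH and 17,503, 15,434 and 17,165 TPM in Ken, with MH replicate 3 the lowest.

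Antioxidant enzymes leaned to Ken: 9 of 115 tested members were higher in MH and 28 in Ken (24.3%), with a median of -0.27. For antioxidant enzymes the counts in MH and Ken were 4 and 22 without Ken replicate 3, 4 and 25 without Ken replicate 2, 5 and 23 without Ken replicate 1 or MH replicate 2. Other counts were 14 and 34 with the controls fitted alone. GPX3, a glutathione peroxidase, stood at 46.3, 42.7 and 49.5 TPM in MH and 146, 166 and 155 TPM in Ken (log2 difference -1.77 ± 0.16, adjusted p = 5.93e-08). Every Ken library was above every MH library, a condition for naming this gene. Peroxiredoxins, which reduce hydrogen peroxide, summed to 1,588 ± 57.98 TPM in MH and 2,046 ± 178 TPM in Ken, with 2 of 12 tested entries higher in Ken and 1 in MH. Entries described as superoxide dismutase or its copper chaperone had 4 of 16 higher in Ken and 0 in MH. These include the chloroplast iron form at 19.9 ± 4.95 TPM in MH and 47.8 ± 5.75 TPM in Ken (log2 difference -1.14, adjusted p = 4.01e-04) and the copper chaperone that loads the copper-zinc forms at 22.6 ± 0.664 TPM in MH and 47.1 ± 4.69 TPM in Ken (log2 difference -1.116, adjusted p = 4.40e-05). The sums of this family overlapped, at 1,835, 1,773 and 1,870 TPM in MH and 2,007, 1,842 and 2,107 TPM in Ken. Catalases summed to 2,815, 3,225 and 2,689.8 TPM in MH and 4,166, 3,946 and 3,505 TPM in Ken, with 1 of 9 called, in Ken.

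A short entry ran the other way. APX1, a cytosolic ascorbate peroxidase entry of 202 bases, stood at 748, 725 and 597 TPM in MH and 0 TPM in every Ken library, with 0 counts in every Ken library. Against a floor of 3 counts per library it was at least 324-fold higher in MH (adjusted p = 3.14e-11). The main cytosolic entry, TRINITY_DN59189_c0_g1, was higher in Ken, with 865 ± 41.5 TPM in MH and 1,067 ± 1.61 TPM in Ken (log2 difference -0.58, adjusted p = 0.0148), a call lost under RLE scaling (log2 difference -0.47), and all 17 ascorbate peroxidase entries summed to 2,386, 2,140.1 and 2,034 TPM in MH and 1,678, 1,634 and 1,673 TPM in Ken.

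Glutathione S-transferases, which attach glutathione to toxic compounds, had 10 of 35 higher in Ken (28.6%) and 5 in MH. For glutathione S-transferases the counts in MH and Ken were 8 and 10 with DESeq2. Their abundant tau-class entries led: GSTU20 stood at 1,180.2, 1,136 and 1,006 TPM in MH and 2,535, 2,181 and 2,553 TPM in Ken (log2 difference -1.04 ± 0.20, adjusted p = 6.01e-04). PARC stood at 969, 854 and 524 TPM in MH and 1,319.7, 1,171 and 1,455 TPM in Ken (log2 difference -1.49 ± 0.22, adjusted p = 5.58e-05). No MH library reached the Ken range for either, which the naming rule required for PARC. A less abundant entry described only as glutathione S-transferase, TRINITY_DN55942_c0_g4, was higher in MH, with 38.7, 53.9 and 111 TPM in MH and 22.8, 17.5 and 14.9 TPM in Ken (log2 difference 2.07 ± 0.40, adjusted p = 0.00152), with replicate 3 the highest. Class III peroxidases, secreted enzymes of the cell wall, leaned to MH, with 8 of 25 tested members higher in MH and 2 in Ken. For class III peroxidases the counts in MH and Ken were 6 and 1 without Ken replicate 1 or 3 or MH replicate 2, 7 and 1 without Ken replicate 2, 8 and 1 without MH replicate 3. Other counts were 10 and 1 with the controls fitted alone. PER21 stood at 284, 641 and 638 TPM in MH and 161, 102 and 148 TPM in Ken (log2 difference 1.904 ± 0.54, adjusted p = 0.024). PER21 lost its call without Ken replicate 1, 2 or 3 or MH replicate 2 or 3 (log2 differences 1.71 to 2.02), and also without a filter on low counts. PER17 was higher in Ken, with 22.4, 9.91 and 5.04 TPM in MH and 44.1, 36.6 and 40.7 TPM in Ken (log2 difference -1.71 ± 0.57, adjusted p = 0.0484). PER17 lost its call without Ken replicate 1, 2 or 3 or MH replicate 2 or 3 (log2 differences -1.81 to -1.35), and also with the controls fitted alone or without a filter on low counts.

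Terpene synthases, which make scent and defence volatiles, showed different members in MH and Ken. Alpha-terpineol synthase (TRINITY_DN52761_c0_g5), a monoterpene enzyme, was among the most abundant transcripts of Ken leaves at 62.4, 57.2 and 27.3 TPM in MH and 3,019, 2,184 and 1,839 TPM in Ken (log2 difference -5.62 ± 0.69, adjusted p = 8.23e-05). Tricyclene synthase TPS4 (TRINITY_DN61283_c2_g1), also a monoterpene enzyme, stood at 11.8 ± 5.66 TPM in MH and 653 ± 183 TPM in Ken (log2 difference -5.75, adjusted p = 8.95e-05). The list summed to 85.5, 74.2 and 33.1 TPM in MH and 3,879, 2,806 and 2,347 TPM in Ken, with 0 of 6 tested members higher in MH and 2 in Ken. An alpha-humulene synthase, ZSS1 (TRINITY_DN57290_c0_g2), a sesquiterpene enzyme named after its values were seen because the list's pattern does not reach its description, was the opposite, with 165, 119.8 and 124 TPM in MH and 0.02, 0.05 and 0 TPM in Ken (adjusted p = 0.00361), with 3 counts in all in Ken. A second alpha-humulene synthase entry, TRINITY_DN56166_c0_g3, was higher in Ken, with 4.37 ± 5.79 TPM in MH and 38.2 ± 5.60 TPM in Ken (log2 difference -3.83, adjusted p = 0.00811), and the 5 entries summed to 199, 146 and 139.8 TPM in MH and 62.1, 75.8 and 55.2 TPM in Ken.

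Flavonoid and anthocyanin genes, which colour tissues and screen light, lay near the background: 6 of 57 tested members were higher in MH and 11 in Ken. Chalcone synthases, the entry enzymes, had 0 calls in 3 tested entries and varied within both materials, summing to 1,943, 3,837 and 1,722 TPM in MH and 803, 2,276 and 900.3 TPM in Ken, where replicate 2 was the highest in each. The labels do not say whether replicate numbers link libraries of the materials. A1, an entry of dihydroflavonol 4-reductase, was higher in MH, with 27.3, 58.8 and 85.3 TPM in MH and 12.5, 25.2 and 14.0 TPM in Ken (log2 difference 1.95 ± 0.24, adjusted p = 2.77e-06), and the anthocyanidin glucosyltransferase GT4 (TRINITY_DN41200_c0_g2) in Ken, with 13.7, 15.3 and 10.4 TPM in MH and 49.8, 52.0 and 44.7 TPM in Ken (log2 difference -2.09 ± 0.29, adjusted p = 1.33e-05). In the phenylpropanoid and lignin list 15 of 78 tested members were higher in MH and 12 in Ken. For phenylpropanoid and lignin genes the counts in MH and Ken were 10 and 11 without Ken replicate 1 or 3, 11 and 11 without MH replicate 2, 24 and 14 with the controls fitted alone. The ligase-like genes 4CLL7 and 4CLL4 were its leading members: 4CLL7 stood at 30.7, 25.4 and 32.6 TPM in MH and 5.83, 5.11 and 5.10 TPM in Ken (log2 difference 2.52 ± 0.22, adjusted p = 3.49e-08). 4CLL4 stood at 19.8, 16.8 and 13.7 TPM in MH and 46.6, 54.9 and 43.1 TPM in Ken (log2 difference -1.83 ± 0.24, adjusted p = 6.11e-06).

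Genes of the wall and the leaf surface leaned to MH. Of wall enzymes and expansins, 59 of 205 tested members were higher in MH (28.8%) and 14 in Ken (6.83%), with a median of 0.53. Expansins, which loosen the wall during growth, summed to 175, 335 and 1,084 TPM in MH and 17.6, 25.4 and 17.9 TPM in Ken, and 9 of 14 tested entries were higher in MH and 0 in Ken. The groups did not overlap, and MH replicate 3 was the highest by far. EXLA2, an expansin-like gene, stood at 13.1, 15.7 and 6.93 TPM in MH and 0.43, 0.89 and 0.30 TPM in Ken (log2 difference 4.57 ± 0.51, adjusted p = 5.75e-06). For EXLA2 no MH library came near the Ken range. Pectin enzymes, which trim and de-esterify pectin, had 30 of 68 higher in MH and 4 in Ken, and summed to 1,224, 2,504 and 2,136 TPM in MH and 349, 453 and 369 TPM in Ken. Among them a pectinesterase 16 entry, TRINITY_DN36235_c0_g3, stood at 191 ± 105 TPM in MH and 0.96 ± 0.912 TPM in Ken (log2 difference 7.61, adjusted p = 4.48e-05). CESA cellulose synthases summed to 1,454, 1,694 and 1,180.2 TPM in MH and 795, 1,158 and 883 TPM in Ken, with 5 of 29 higher in MH and 2 in Ken. Xyloglucan endotransglucosylases, which cut and rejoin wall polymers, were the exception, with 4 of 23 higher in MH and 2 in Ken and a sum of 2,218, 2,448 and 1,989 TPM in MH and 2,574, 2,694 and 3,124 TPM in Ken, all Ken sums above all MH sums. Their most abundant entry, XTH30, stood at 1,298, 1,119 and 754 TPM in MH and 1,425, 1,516 and 1,795 TPM in Ken (log2 difference -0.60 ± 0.20, adjusted p = 0.0379) and lost its call under RLE scaling (log2 difference -0.49). It shares an assembly cluster with SSU26. XTH30 lost its call without Ken replicate 1, 2 or 3 or MH replicate 2 or 3 (log2 differences -0.68 to -0.42), and also with DESeq2, with the controls fitted alone or with the filter at 50 counts. CSLE1, a cellulose synthase-like gene, was also higher in Ken, with 25.3, 18.7 and 20.4 TPM in MH and 63.7, 58.7 and 71.6 TPM in Ken (log2 difference -1.92 ± 0.23, adjusted p = 2.83e-06).

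Cuticle wax and cutin genes had 10 of 39 higher in MH (25.6%) and 2 in Ken, with a median of 0.98. For cuticle wax and cutin genes the counts in MH and Ken were 6 and 2 without MH replicate 3, 18 and 4 with the controls fitted alone. 3-ketoacyl-CoA synthases, which lengthen fatty acids for waxes, summed to 1,088, 2,280.3 and 2,836 TPM in MH and 774, 885 and 733 TPM in Ken. FDH, the entry of 3-ketoacyl-CoA synthase 10 that acts in the epidermis, stood at 252, 481 and 557 TPM in MH and 142, 149 and 122 TPM in Ken (log2 difference 1.63 ± 0.36, adjusted p = 0.00401). Markers of epidermis, guard cells and trichomes summed to 140.0, 152 and 154 TPM in MH and 166, 166 and 153 TPM in Ken, overlapping, with 3 of 21 called in each direction. For epidermis, guard cell and trichome markers the counts in MH and Ken were 0 and 1 without Ken replicate 1, 1 and 2 without Ken replicate 3, 2 and 1 without MH replicate 2. Other counts were 3 and 5 with the controls fitted alone, 5 and 3 with DESeq2. Xylem markers overlapped too, at 784, 1,088 and 599.5 TPM in MH and 539, 760.3 and 524 TPM in Ken. Their part in the wall and cuticle results was not tested.

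Aquaporins, the water channels, had 11 of 37 higher in MH (29.7%) and 5 in Ken. For aquaporins the counts in MH and Ken were 7 and 5 without Ken replicate 3 or MH replicate 3. Plasma membrane PIP channels summed to 2,216, 3,008 and 3,994 TPM in MH and 1,399, 1,239 and 1,113 TPM in Ken, with 6 of 16 entries higher in MH and 0 in Ken. PIP2-2 stood at 262, 372 and 435 TPM in MH and 177, 170.0 and 138 TPM in Ken (log2 difference 1.13 ± 0.23, adjusted p = 0.00106). Among vacuolar TIP channels, a TIP4-3 entry stood at 191 ± 47.2 TPM in MH and 9.93 ± 0.309 TPM in Ken (log2 difference 4.20, adjusted p = 2.13e-04). SIP2-1, a channel of the endoplasmic reticulum, was higher in Ken, with 24.7, 15.4 and 14.2 TPM in MH and 42.9, 36.4 and 35.2 TPM in Ken (log2 difference -0.99 ± 0.21, adjusted p = 0.00122). GASA4, a gibberellin-regulated peptide of growing tissue, stood at 135, 249 and 1,291 TPM in MH and 16.1, 6.73 and 11.6 TPM in Ken (log2 difference 6.07 ± 1.65, adjusted p = 0.0191), with no overlap and MH replicate 3 above the other MH libraries. GASA4 lost its call without Ken replicate 1, 2 or 3 or MH replicate 3 (log2 differences 4.52 to 6.34).

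Cytosolic ribosomal proteins, the parts of the machine that makes proteins, leaned to Ken: 6 of 245 tested members were higher in MH and 98 in Ken (40.0%), with a median of -0.43. Their summed level was 19,490.3, 17,957 and 17,710.3 TPM in MH and 26,028, 22,309.5 and 25,568 TPM in Ken, with every Ken library above every MH library. Under RLE scaling 81 were higher in Ken and 7 in MH, with a median of -0.32. Both subunits took part, the large subunit with 57 of 155 higher in Ken and 2 in MH and the small subunit with 41 of 94 and 4. Among genes of 653 to 1520 bases, from the lower to the upper quartile of the list's lengths, 50.4% of 123 ribosomal proteins were higher in Ken against 16.6% of 9,500 other described genes. RPL36A, of the large subunit, stood at 147, 134 and 126 TPM in MH and 700.1, 558 and 752 TPM in Ken (log2 difference -2.30 ± 0.24, adjusted p = 3.66e-07). RPS27AA, a fusion of ubiquitin and a small subunit protein, was the most abundant of the 6 exceptions at 2,306, 1,936 and 1,881 TPM in MH and 1,011, 1,162 and 972 TPM in Ken (log2 difference 1.122 ± 0.30, adjusted p = 0.0123). RPS27AA lost its call without Ken replicate 1 or 3 or MH replicate 1 (log2 differences 1.01 to 1.10). For cytosolic ribosomal proteins the counts in MH and Ken were 2 and 71 without Ken replicate 1, 2 and 88 without MH replicate 1, 3 and 95 without Ken replicate 2. Other counts were 11 and 109 with the controls fitted alone. Chloroplast ribosomal proteins overlapped between the materials, at 4,902, 4,610.3 and 4,713 TPM in MH and 4,895, 4,199.9 and 5,358 TPM in Ken, and 9 of 58 were higher in Ken and 4 in MH.

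Genes of dividing cells were called mostly in Ken in the 6-group model. Of cell cycle and core histone genes, 1 of 71 tested members were higher in MH and 14 in Ken, 19.7% in Ken against 16.2% of described genes. For cell cycle and core histones the counts in MH and Ken were 0 and 9 without Ken replicate 1, 0 and 11 without MH replicate 2, 1 and 9 without Ken replicate 3. Other counts were 2 and 13 without Ken replicate 2 or MH replicate 1, 4 and 11 with RLE scaling or with TMM factors of described genes, 4 and 12 with DESeq2. Further counts were 12 and 17 with the controls fitted alone. Histone H2B.4, TRINITY_DN56918_c0_g2, stood at 253, 217 and 163 TPM in MH and 380.4, 330.5 and 319.9 TPM in Ken (log2 difference -0.67 ± 0.21, adjusted p = 0.0252), a call lost under RLE scaling (log2 difference -0.56). Histone H2B.4 lost its call without Ken replicate 1 or 3 or MH replicate 3 (log2 differences -0.68 to -0.54), and also with DESeq2. A histone H2A entry, TRINITY_DN44761_c0_g5, was clearer, with 67.9 ± 5.18 TPM in MH and 201 ± 3.26 TPM in Ken (log2 difference -1.56, adjusted p = 1.14e-06). Of markers of meristems and dividing cells, 2 of 18 tested members were higher in MH and 8 in Ken (44.4% in Ken), and they summed to 269, 297 and 248 TPM in MH and 399, 402 and 383 TPM in Ken without overlap. For meristem and dividing cell markers the counts in MH and Ken were 1 and 6 without Ken replicate 1, 1 and 7 without Ken replicate 2, 1 and 8 without MH replicate 2. Other counts were 3 and 6 with DESeq2. A knotted-1-like 3 homeobox gene, TRINITY_DN47896_c0_g1, which the list took in by its name alone, stood at 22.99, 25.7 and 20.6 TPM in MH and 47.6, 53.4 and 46.6 TPM in Ken (log2 difference -0.996 ± 0.27, adjusted p = 0.00885). The link of this gene to dividing cells in these leaves was not tested. Whether dividing cells had a part in the ribosomal result was not tested.

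Sugar metabolism leaned to Ken. For starch and sucrose genes 9 of 94 tested members were higher in MH and 28 in Ken (29.8% in Ken), with a median of -0.36. AGPP, the small subunit of ADP-glucose pyrophosphorylase, which commits glucose to starch, stood at 46.2, 44.6 and 67.1 TPM in MH and 168, 163 and 149 TPM in Ken (log2 difference -1.67 ± 0.16, adjusted p = 1.02e-07). Its large subunits split, with TRINITY_DN36046_c1_g1 at 10.2 ± 1.89 TPM in MH and 39.4 ± 2.53 TPM in Ken (log2 difference -2.50, adjusted p = 1.83e-05) and TRINITY_DN60401_c0_g1 at 42.9 ± 7.36 TPM in MH and 15.6 ± 2.60 TPM in Ken (log2 difference 1.32, adjusted p = 1.67e-04). The small subunit and both large subunits were free of overlap. Amylases, which degrade starch, had 14 of 33 higher in Ken and 4 in MH. An alpha-amylase 3 entry, TRINITY_DN61441_c0_g1, stood at 18.4 ± 0.274 TPM in MH and 47.5 ± 6.47 TPM in Ken (log2 difference -1.38, adjusted p = 2.76e-07). Sucrose synthases had 5 of 14 higher in Ken and 0 in MH. INVE, an invertase, was higher in MH, with 30.1, 32.3 and 29.7 TPM in MH and 13.5, 14.9 and 12.7 TPM in Ken (log2 difference 1.17 ± 0.17, adjusted p = 3.32e-05).

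In the raffinose and trehalose list 3 of 36 tested members were higher in MH and 10 in Ken (27.8% in Ken), with a median of -0.86. For raffinose and trehalose genes the counts in MH and Ken were 2 and 16 with the controls fitted alone. Galactinol synthases, the first step to raffinose, a protective sugar, summed to 233.6, 207 and 138 TPM in MH and 573, 561 and 525 TPM in Ken. GOLS2 stood at 48.0, 39.2 and 26.9 TPM in MH and 110.5, 105 and 106 TPM in Ken (log2 difference -1.58 ± 0.26, adjusted p = 1.66e-04). RFS2, described as a galactinol-sucrose galactosyltransferase, was the opposite, with 47.6, 21.6 and 37.7 TPM in MH and 6.49, 10.8 and 8.09 TPM in Ken (log2 difference 2.21 ± 0.40, adjusted p = 0.00117). Sugar transporters leaned to MH by number, with 9 of 36 tested members higher in MH and 5 in Ken. SWEET16, a vacuolar sugar channel, was nevertheless higher in Ken, with 29.5, 14.6 and 9.51 TPM in MH and 93.5, 121 and 125 TPM in Ken (log2 difference -2.56 ± 0.54, adjusted p = 0.00347), a call that DESeq2 did not make. The polyol transporter PLT1 was higher in MH, with 286, 299 and 245 TPM in MH and 151, 191 and 143 TPM in Ken (log2 difference 0.89 ± 0.24, adjusted p = 0.00952).

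**Figure D3:**
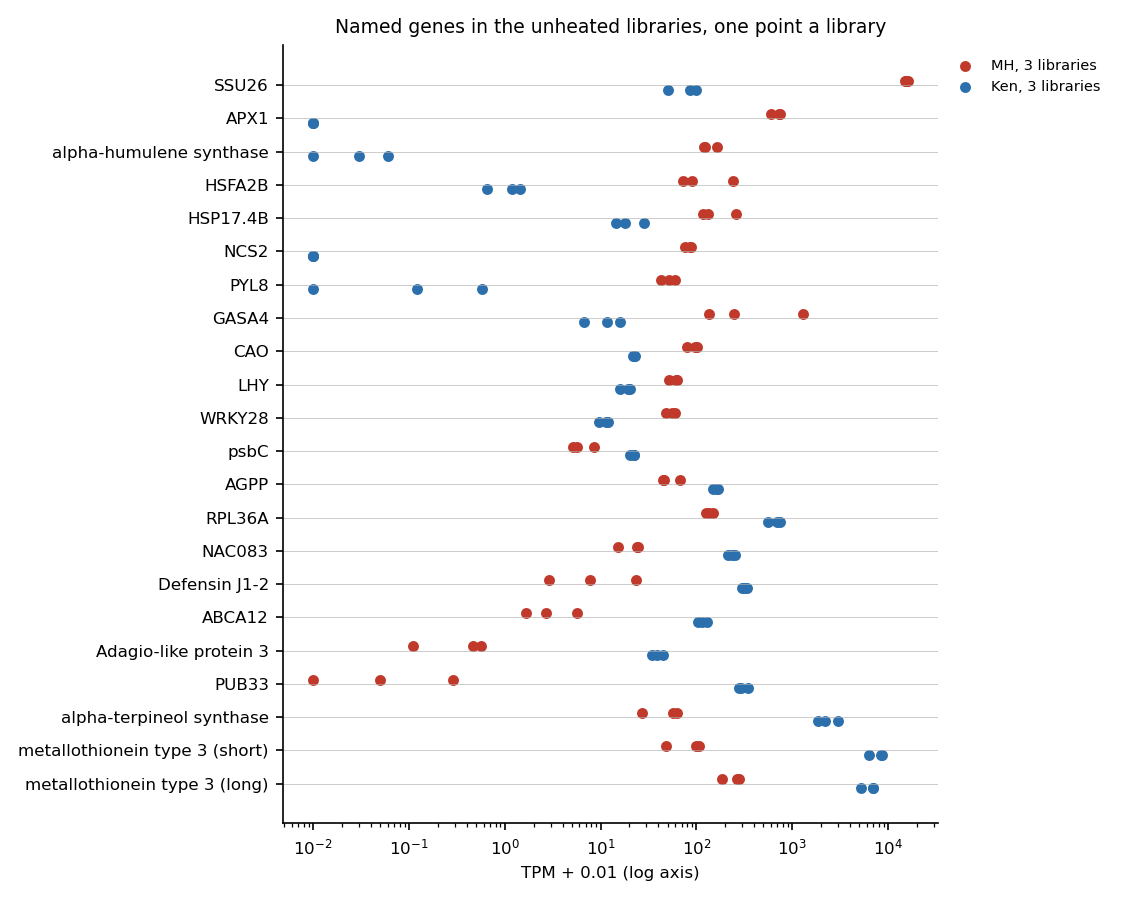
Level of 22 named genes in each unheated library, as TPM plus 0.01 on a log axis, with MH in red and Ken in blue and 1 point a library. Genes higher in MH are above and genes higher in Ken below. None of the 22 genes overlaps between the materials, which was a condition for genes named by the rule.

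Hormone genes showed few lists apart from the background and several single genes. PYL8 and PYL4 are abscisic acid receptors, which release the stress response when the hormone binds. A PYL8 entry, TRINITY_DN54230_c0_g7, stood at 52.0, 42.7 and 59.1 TPM in MH and 0, 0.57 and 0.11 TPM in Ken (log2 difference 7.65 ± 0.51, adjusted p = 5.41e-10), but its 3 entries summed to 165 ± 25.3 TPM in MH and 126 ± 8.55 TPM in Ken without a call (adjusted p = 0.119). PYL4 (TRINITY_DN37210_c1_g5) was higher in Ken, with 0.67, 1.64 and 0.27 TPM in MH and 10.4, 11.7 and 11.5 TPM in Ken (log2 difference -3.71 ± 0.52, adjusted p = 2.35e-05), and so was its 2-entry sum. So the receptor pair pointed to opposite materials entry by entry, and only PYL4 did so as a sum. TIFY10B, a jasmonate repressor of the JAZ family, was higher in MH, with 25.7, 28.6 and 25.4 TPM in MH and 7.74, 8.13 and 4.47 TPM in Ken (log2 difference 1.85 ± 0.20, adjusted p = 6.96e-07). LOX1, a lipoxygenase, was higher in Ken, with 4.94, 3.55 and 2.65 TPM in MH and 12.9, 20.9 and 11.7 TPM in Ken (log2 difference -2.01 ± 0.27, adjusted p = 9.95e-06). Neither gene overlapped between the materials, which was a condition for naming them. ARF18, an auxin response factor, stood at 147, 154 and 196 TPM in MH and 48.6, 39.0 and 53.2 TPM in Ken (log2 difference 1.65 ± 0.21, adjusted p = 5.10e-06), while the auxin repressor IAA21 stood at 73.0, 73.5 and 81.1 TPM in MH and 142, 126 and 119 TPM in Ken (log2 difference -0.72 ± 0.20, adjusted p = 0.0104). By list, 3 of 24 abscisic acid genes, 13 of 66 ethylene and jasmonate genes, 21 of 105 auxin genes and 6 of 62 gibberellin and cytokinin genes were higher in MH, and 2, 11, 17 and 9 in Ken. For abscisic acid genes the counts in MH and Ken were 2 and 2 without Ken replicate 2 or 3 or MH replicate 3, 7 and 2 with the controls fitted alone. For ethylene and jasmonate genes the counts in MH and Ken were 8 and 7 without Ken replicate 1 or 2, 10 and 7 without Ken replicate 3, 11 and 7 without MH replicate 3. Other counts were 21 and 15 with the controls fitted alone. For auxin genes the counts in MH and Ken were 12 and 13 without Ken replicate 3, 15 and 9 without MH replicate 3, 31 and 28 with the controls fitted alone. For gibberellin and cytokinin genes the counts in MH and Ken were 3 and 8 without Ken replicate 3, 9 and 9 with DESeq2, 11 and 13 with the controls fitted alone.

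Transcription factor families divided by family. NAC factors, many of them regulators of senescence and stress, leaned to Ken, with 7 of 64 tested members higher in MH and 16 in Ken (25.0% in Ken) and sums of 656, 589 and 536 TPM in MH and 1,133, 927 and 1,006 TPM in Ken. For NAC factors the counts in MH and Ken were 4 and 11 without MH replicate 1, 8 and 11 with RLE scaling or with TMM factors of described genes, 10 and 12 with DESeq2. NAC083 stood at 24.6, 24.2 and 15.3 TPM in MH and 253, 215 and 236 TPM in Ken (log2 difference -3.48 ± 0.43, adjusted p = 1.79e-05), and its 3 entries summed to 119 ± 12.1 TPM in MH and 446 ± 44.7 TPM in Ken. The Ken libraries of NAC083 all lay far above the MH libraries, and a lack of overlap was a condition for naming it. NAC68 was the reverse, with 36.8, 12.9 and 12.5 TPM in MH and 0.95, 0.84 and 0.50 TPM in Ken (log2 difference 4.76 ± 0.43, adjusted p = 1.14e-06). Ethylene-responsive factors leaned to MH, with 16 of 69 tested members higher in MH and 10 in Ken (23.2% in MH), among them RAP2-12, which switches on low-oxygen genes, at 100.05, 90.05 and 96.4 TPM in MH and 45.8, 48.9 and 47.9 TPM in Ken (log2 difference 1.04 ± 0.21, adjusted p = 7.18e-04). CRF4, a cytokinin response factor of the same family, was higher in Ken, with 8.71, 7.54 and 6.97 TPM in MH and 21.6, 18.6 and 17.2 TPM in Ken (log2 difference -1.30 ± 0.23, adjusted p = 2.10e-04). For ethylene-responsive factors the counts in MH and Ken were 18 and 7 with RLE scaling. WRKY factors, regulators of defence, were called 5 times each way among 45. For WRKY factors the counts in MH and Ken were 3 and 2 without MH replicate 2, 3 and 3 without Ken replicate 1 or 3, 4 and 2 without MH replicate 3. Other counts were 5 and 2 without Ken replicate 2, 5 and 3 with DESeq2, with RLE scaling or with TMM factors of described genes. WRKY28 stood at 55.5, 59.8 and 48.4 TPM in MH and 11.4, 11.9 and 9.68 TPM in Ken (log2 difference 2.30 ± 0.42, adjusted p = 3.27e-04), and WRKY46 (described as SUSIBA2) at 11.2, 9.07 and 9.76 TPM in MH and 17.96, 17.5 and 17.8 TPM in Ken (log2 difference -0.81 ± 0.18, adjusted p = 0.00226). MYB factors gave 8 of 81 in MH and 13 in Ken. For MYB transcription factors the counts in MH and Ken were 4 and 10 without MH replicate 1, 5 and 9 without MH replicate 3, 5 and 10 without Ken replicate 1. Other counts were 6 and 8 without MH replicate 2, 11 and 11 with RLE scaling or with TMM factors of described genes, 12 and 12 with DESeq2. Further counts were 19 and 17 with the controls fitted alone. The MYB1R1 entry TRINITY_DN61179_c1_g1 stood at 64.9, 30.6 and 77.4 TPM in MH and 8.42, 5.73 and 5.69 TPM in Ken (log2 difference 1.70 ± 0.34, adjusted p = 0.00155), a case where the TPM ratio was the larger. MADS-box and flowering genes gave 2 of 23 in MH and 7 in Ken. For MADS-box and flowering genes the counts in MH and Ken were 0 and 5 without Ken replicate 2 or 3 or MH replicate 1, 0 and 6 without Ken replicate 1, 1 and 4 without MH replicate 3. Other counts were 1 and 5 without MH replicate 2, 3 and 6 with DESeq2, 4 and 7 with the controls fitted alone.

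Clock genes differed between the materials gene by gene. LHY, a morning-expressed repressor at the centre of the clock, had all 3 of its entries higher in MH, and they summed to 157, 197 and 169.8 TPM in MH and 56.9, 40.1 and 53.9 TPM in Ken. The entry TRINITY_DN55890_c0_g2 stood at 51.8, 61.8 and 62.4 TPM in MH and 19.4, 15.98 and 20.1 TPM in Ken (log2 difference 1.72 ± 0.23, adjusted p = 1.32e-05). GIGANTEA, an evening-phased clock gene, was higher in Ken, with 41.02 ± 6.36 TPM in MH and 67.9 ± 14.3 TPM in Ken (log2 difference -0.73, adjusted p = 0.0149). GIGANTEA lost its call without Ken replicate 2 or MH replicate 3 (log2 differences -0.61 to -0.58). The pseudo-response regulator PRR95 was also higher in Ken, with 7.66 ± 0.818 TPM in MH and 20.997 ± 4.49 TPM in Ken (log2 difference -1.42, adjusted p = 4.93e-05). Of 8 tested pseudo-response regulators, 1 was called higher in MH and 1 in Ken. Their sums were 167, 180 and 157 TPM in MH and 490, 483 and 500 TPM in Ken, every Ken sum above every MH sum. Adagio-like protein 3, of the blue-light receptor family that times protein degradation, was near 0 in MH, at 0.56, 0.45 and 0.10 TPM in MH and 34.3, 44.3 and 38.8 TPM in Ken (log2 difference -6.75 ± 0.68, adjusted p = 8.74e-06). In the list as a whole 7 of 47 tested members were higher in MH and 9 in Ken. For clock and photoperiod genes the counts in MH and Ken were 8 and 8 with library totals, 10 and 7 with RLE scaling or with TMM factors of described genes, 13 and 8 with DESeq2. Other counts were 18 and 10 with the controls fitted alone. The hour of sampling is not given for either material, so a difference in the materials and a difference in the hour cannot be told apart for these genes.

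Immune receptors of the NBS-LRR class, which detect pathogen effectors inside the cell, had 107 of 452 higher in MH (23.7%) and 70 in Ken (15.5%). Their sums were 8,129, 8,933 and 10,306 TPM in MH and 5,980.1, 7,474 and 5,937 TPM in Ken. RGA1 (TRINITY_DN56547_c0_g2) stood at 37.0, 43.3 and 43.5 TPM in MH and 0, 0 and 0.01 TPM in Ken, with 1 count in all in Ken (adjusted p = 3.51e-09). An RPS2 entry, TRINITY_DN62509_c0_g1, stood at 240.2, 225 and 138 TPM in MH and 0.01, 0 and 0.01 TPM in Ken, with 2 counts in all in Ken (adjusted p = 6.35e-05). Each was abundant in all MH libraries and at or near 0 in Ken.

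Other entries of the same names were present only in Ken among the control libraries. The RPS2 entry TRINITY_DN62041_c0_g1 stood at 0 TPM in every MH library and 26.2, 28.9 and 22.9 TPM in Ken and was at least 711-fold lower in MH (adjusted p = 3.13e-12). Another, TRINITY_DN46653_c2_g6, stood at 0 TPM in every MH library and 14.2, 14.8 and 12.8 TPM in Ken and was at least 391.7-fold lower in MH (adjusted p = 2.53e-08). At1g61180 stood at 0, 0.02 and 0 TPM in MH and 40.8, 55.2 and 36.0 TPM in Ken, with 2 counts in all in MH (adjusted p = 3.75e-08). Summed over the 45 entries of the Swiss-Prot description RPS2, the level was 797 ± 58.1 TPM in MH and 604 ± 64.3 TPM in Ken, a log2 difference of 0.77 (adjusted p = 0.031). The sum differed by far less than the single entries did.

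Mannose-binding lectins, storage and defence proteins common in aroids and other monocots, had 4 of 7 entries higher in MH and 1 in Ken, with sums of 2,471, 1,156 and 1,171 TPM in MH and 521, 637 and 582 TPM in Ken. Replicate 1 held the highest MH sum. LECCVA1 stood at 23.4, 97.0 and 134 TPM in MH and 0 TPM in every Ken library, at least 658-fold higher in MH (adjusted p = 0.00395). A mannose-binding lectin entry, TRINITY_DN55002_c0_g1, stood at 9.46, 40.1 and 77.5 TPM in MH and 0 TPM in every Ken library, at least 307-fold higher in MH (adjusted p = 0.00321). MH replicate 1 was the lowest MH library for both, and the second entry lost its call when the controls were fitted alone (adjusted p = 0.0617). Defensin J1-2, an antimicrobial peptide, was higher in Ken, with 23.6, 2.91 and 7.74 TPM in MH and 336, 298 and 312 TPM in Ken (log2 difference -5.08 ± 0.52, adjusted p = 1.29e-05), whereas a glucan endo-1,3-beta-glucosidase entry, TRINITY_DN61378_c2_g1, was higher in MH, with 18.3, 25.7 and 24.2 TPM in MH and 3.35, 1.89 and 1.69 TPM in Ken (log2 difference 3.005 ± 0.30, adjusted p = 1.89e-07). Of the pathogenesis-related list 16 of 111 tested members were higher in MH and 15 in Ken. For pathogenesis-related proteins the counts in MH and Ken were 8 and 13 without Ken replicate 1, 9 and 14 without Ken replicate 3, 10 and 14 without Ken replicate 2. Other counts were 10 and 15 without MH replicate 1, 11 and 13 without MH replicate 3, 12 and 15 without MH replicate 2. Further counts were 29 and 19 with the controls fitted alone. Antimicrobial and wall-degrading defence genes therefore lay on both sides. Receptor-like kinases gave 91 of 628 in MH and 74 in Ken. For receptor-like kinases the counts in MH and Ken were 155 and 86 with the controls fitted alone. DESeq2 gave 130 and 72. ERECTA, which shapes organs and stomatal density, was higher in MH, with 69.7, 87.4 and 192 TPM in MH and 11.8, 17.3 and 17.7 TPM in Ken (log2 difference 2.99 ± 0.22, adjusted p = 2.01e-09). The kinase At4g29180 was seen in Ken alone among the controls, at 0 TPM in every MH library and 54.7, 57.8 and 52.0 TPM in Ken (at least 570.1-fold lower in MH, adjusted p = 3.43e-13), and At1g56130 was higher in Ken, with 7.63, 3.94 and 4.99 TPM in MH and 85.2, 96.0 and 67.04 TPM in Ken (log2 difference -2.73 ± 0.24, adjusted p = 3.25e-08). PUB33, a ubiquitin ligase entry, stood at 0, 0.04 and 0.28 TPM in MH and 349, 294 and 277 TPM in Ken, with 2 counts in all in MH (adjusted p = 5.12e-13), and its 10 entries summed to 35.5 ± 5.23 TPM in MH and 449 ± 49.1 TPM in Ken.

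Specialised metabolism and transport held further differences between the materials. NCS2, which in poppy and meadow-rue starts benzylisoquinoline alkaloid synthesis, stood at 85.0, 87.2 and 75.1 TPM in MH and 0 TPM in every Ken library and was at least 406-fold higher in MH (adjusted p = 1.56e-09). BGLU22, a beta-glucosidase, stood at 0, 0.02 and 0 TPM in MH and 24.0, 27.1 and 27.3 TPM in Ken, with 1 count in all in MH (adjusted p = 3.96e-10), although its 2 entries summed to 1,832 ± 191 TPM in MH and 1,054 ± 183 TPM in Ken. The call of this entry was thus opposite to its description sum. HMA2, a pump that exports zinc and cadmium, stood at 0 TPM in every MH library and 19.9, 24.9 and 19.03 TPM in Ken and was at least 469.01-fold lower in MH (adjusted p = 1.35e-11). The 8 HMA2 entries summed to 215 ± 22.5 TPM in MH and 147 ± 13.7 TPM in Ken, without a call (adjusted p = 0.156). The WAT1-related transporter At1g43650 stood at 0 TPM in every MH library and 11.3, 13.1 and 18.1 TPM in Ken (at least 119.9-fold lower in MH, adjusted p = 1.91e-07).

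Cytochrome P450 enzymes, oxidases of many pathways, had 18 of 136 tested members higher in MH and 37 in Ken (27.2% in Ken). For cytochrome P450 enzymes the counts in MH and Ken were 11 and 29 without Ken replicate 1, 11 and 30 without Ken replicate 3, 16 and 24 without MH replicate 3. Other counts were 32 and 37 with the controls fitted alone. CYP71A21 stood at 0.36, 0.49 and 0.11 TPM in MH and 12.9, 20.3 and 13.8 TPM in Ken (log2 difference -5.32 ± 0.57, adjusted p = 6.74e-07). All 3 MH libraries were below 1 TPM. CYP93A2 was the reverse, with 10.8, 11.7 and 19.2 TPM in MH and 1.54, 5.07 and 0.73 TPM in Ken (log2 difference 3.77 ± 0.47, adjusted p = 3.44e-06). ABCA12, an ABC transporter, stood at 5.71, 2.70 and 1.65 TPM in MH and 129.5, 113 and 103 TPM in Ken (log2 difference -5.11 ± 0.65, adjusted p = 7.91e-05), and its libraries were far apart, while ABC transporters as a list gave 17 of 114 in MH and 14 in Ken. For ABC transporters the counts in MH and Ken were 10 and 10 without MH replicate 2, 10 and 11 without Ken replicate 3, 11 and 12 without Ken replicate 1. Other counts were 27 and 20 with the controls fitted alone. NPF3.1, of the nitrate and peptide transporter family, was higher in MH, with 117, 52.9 and 152 TPM in MH and 12.5, 17.5 and 9.02 TPM in Ken (log2 difference 2.99 ± 0.75, adjusted p = 0.0123). NPF3.1 lost its call without Ken replicate 1 or 3 (log2 differences 2.81 to 2.96). The transporter NPF2.2 of the same family was higher in Ken, with 69.4, 107 and 123 TPM in MH and 142, 194 and 185 TPM in Ken (log2 difference -1.61 ± 0.27, adjusted p = 1.53e-04). Small-molecule glycosyltransferases summed to 4,809, 4,535 and 4,188 TPM in MH and 2,939, 3,471 and 2,889 TPM in Ken, with 16 of 108 tested members higher in MH and 20 in Ken. For glycosyltransferases of small molecules the counts in MH and Ken were 14 and 14 without MH replicate 3, 28 and 25 with the controls fitted alone. The hydroquinone glucosyltransferase AS stood at 138, 119 and 106 TPM in MH and 38.9, 65.3 and 43.2 TPM in Ken (log2 difference 1.29 ± 0.32, adjusted p = 0.00746). AS lost its call without Ken replicate 1 (log2 difference 1.14).

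Mobile elements and virus-like sequences were measured as part of the leaf transcriptome. Copia-type elements gave 81 of 670 higher in MH and 61 in Ken, and Gypsy-type elements 47 of 384 and 35. Both were close to the background in MH and below it in Ken. For Copia-type elements the counts in MH and Ken were 54 and 54 without Ken replicate 1. For Gypsy-type elements the counts in MH and Ken were 42 and 18 with the controls fitted alone. DNA transposons had 18 of 78 higher in MH (23.1%) and 11 in Ken. The RICESLEEPER 1 entry TRINITY_DN60321_c0_g4, of a domesticated transposase family, stood at 22.1, 24.2 and 17.8 TPM in MH and 0 TPM in every Ken library and was at least 279-fold higher in MH (adjusted p = 2.89e-04). Entries described as Polyprotein P3, a viral type of polyprotein, summed to 44.2, 40.8 and 34.9 TPM in MH and 153, 196 and 139 TPM in Ken, every Ken library above every MH library. The entry TRINITY_DN39620_c1_g1 alone stood at 0.10, 0.08 and 0.09 TPM in MH and 74.3, 92.1 and 67 TPM in Ken (log2 difference -9.69 ± 0.40, adjusted p = 1.99e-12), while another, TRINITY_DN54205_c0_g4, stood at 8.49, 9.41 and 12.2 TPM in MH and 0 TPM in every Ken library (at least 108-fold higher in MH, adjusted p = 0.00442). Transcripts whose best description is an animal protein and that have no plant match summed to 35.3, 53.4 and 6.51 TPM in MH and 238, 110.2 and 201 TPM in Ken, with 6 of 41 called, all in Ken. For animal-named transcripts the counts in MH and Ken were 0 and 0 with the controls fitted alone, 0 and 3 without Ken replicate 3 or MH replicate 3, 0 and 12 with DESeq2. Their part in the other results was not tested.

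The same materials were compared after heat in other libraries, as contrasts of the same fit of all 18 libraries. The contrasts share each gene's fitted spread, so calls at 25 °C and calls after heat are not independent. Of the 15,276 control calls, 7,292 (47.7%) were called in the same direction between MH and Ken at 38/33 °C and 7,612 (49.8%) at 40/35 °C, and 5,049 (33.1%) at both. MH and Ken differed in 34.7% of tested genes at 38/33 °C (19.9% higher in MH, 14.7% in Ken) and in 48.5% at 40/35 °C (28.2% and 20.3%). The call was reversed for 896 genes (5.87%) at 38/33 °C and 1,735 (11.4%) at 40/35 °C. The size of the difference itself changed with the regime, by an interaction test at an adjusted p below 0.05, for 3,863 control calls (25.3%) at 38/33 °C and 5,547 (36.3%) at 40/35 °C.

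**Figure D4:**
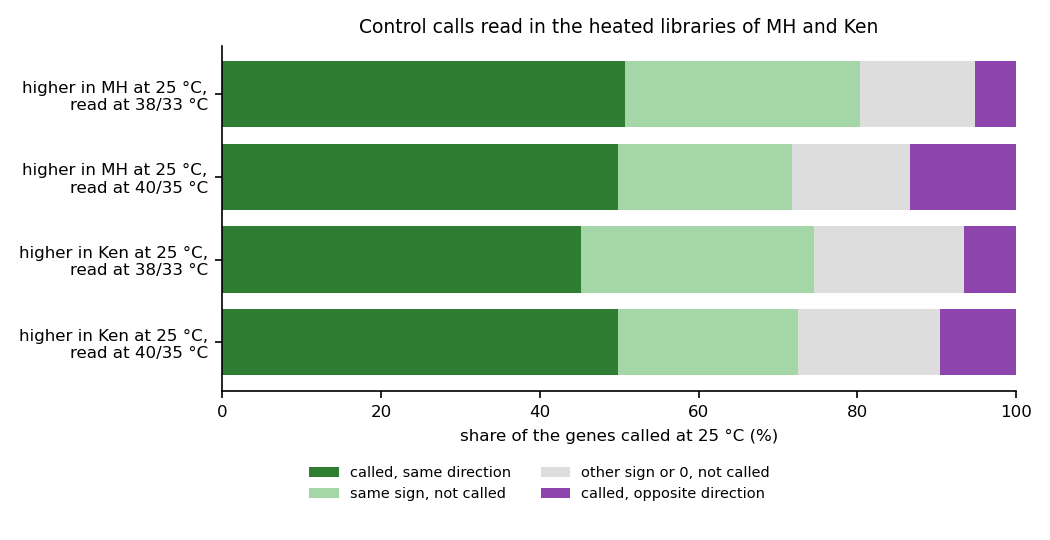
Genes called between MH and Ken at 25 °C, split by direction, and how they stood between MH and Ken at 38/33 °C and 40/35 °C, as a share of the control calls in percent. Dark green marks a call in the same direction, which was 50.7% and 49.8% for genes higher in MH and 45.1% and 49.8% for genes higher in Ken, and purple marks a call in the opposite direction.

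Several of the named entries kept their state after heat. APX1 stood at 526 ± 145 TPM (SD, n = 3) in MH, with 38/33 °C and 424 ± 44.9 at 40/35 °C, with 0 in every Ken library. The RPS2 entry TRINITY_DN62041_c0_g1 stood at 49.7 ± 8.39 and 26.8 ± 7.63 TPM in heated Ken and at 0 in heated MH. The short metallothionein entry TRINITY_DN48994_c0_g2 stayed higher in Ken, at 2,086 ± 340.2 TPM against 61.97 ± 38.4 at 38/33 °C (adjusted p = 5.56e-06) and 4,504 ± 1,058 against 86.7 ± 34.3 at 40/35 °C (adjusted p = 1.04e-06). SSU26 stood lower in both materials and kept its direction, at 1,033 ± 1,257 TPM in MH against 7.12 ± 3.30 in Ken, with 38/33 °C (adjusted p = 1.13e-04).

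Other groups changed. HSFA2B was at 40.6 ± 33.1 TPM in MH and 158 ± 28.2 TPM in Ken, with 40/35 °C, a call in the opposite direction (adjusted p = 0.00556), and the change of the difference from 25 °C was -9.47 ± 1.001 (adjusted p = 2.81e-05). Small heat shock proteins summed to 12,715 ± 6,876 TPM in MH and 52,219 ± 4,981 in Ken, with 40/35 °C, with 3 members higher in MH and 25 in Ken. HSP70 chaperones and partners had 4 and 33. Alpha-terpineol synthase averaged below 1 TPM in both materials at both heated regimes. CAO, higher in MH, with 25 °C, was higher in Ken, with 38/33 °C, with 16.2 ± 6.40 TPM in MH and 38.6 ± 1.04 in Ken (adjusted p = 0.00127). Cytosolic ribosomal proteins kept the Ken direction, with 50 members higher in Ken and 18 in MH, with 38/33 °C and 196 and 13 at 40/35 °C. LHY gave no call at 38/33 °C (adjusted p = 0.779 for TRINITY_DN55890_c0_g2). At 40/35 °C this entry was called in the opposite direction, with 17.7 ± 7.42 TPM in MH and 36.5 ± 6.11 in Ken (adjusted p = 7.00e-05).

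**Figure D5:**
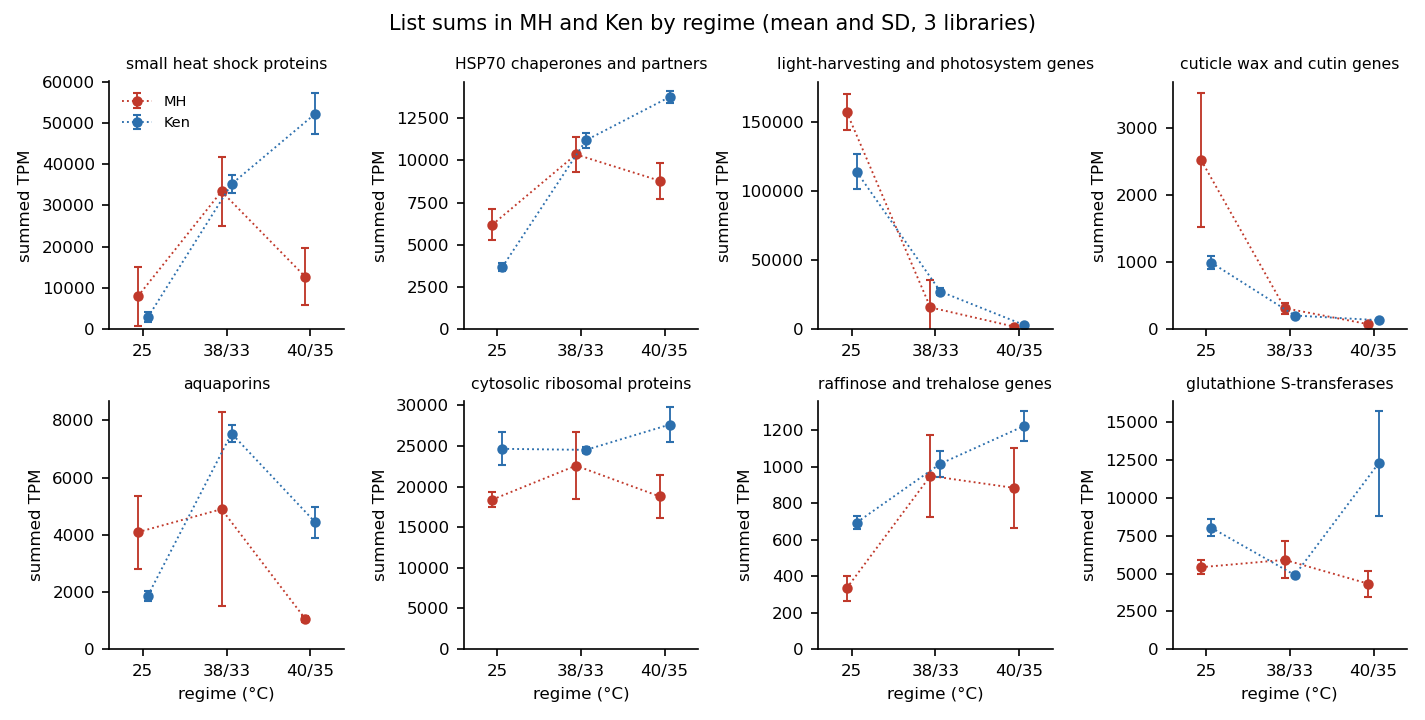
Summed TPM of 8 gene lists in MH (red) and Ken (blue) at 25, 38/33 and 40/35 °C, as the mean and SD of 3 libraries, with bars cut at 0 and dotted lines to guide the eye. The MH mean is higher at 25 °C for small heat shock proteins, HSP70, light-harvesting, cuticle and aquaporin lists. For small heat shock proteins the libraries overlap at 25 °C, and MH replicate 3 is far above the others. At 40/35 °C the small heat shock and HSP70 sums are higher in Ken.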

How the data were processed

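RNA sequencing of leaves gave 1 deposited table with 158,487 assembled genes, of which the 6 control columns (3 MH, 3 Ken) were compared here. Per the file headers, 1 set of columns holds the authors' count of each gene in each library. Since 95.9 to 96.7% of the control values, and not all of them, are whole, these were read as estimated counts by the authors and rounded to whole numbers for the tests. The columns without a unit in their name were read as the authors' TPM from their sums of 988,405 to 991,008 per control library. Adapters were trimmed with cutadapt 1.9, per the submitters' processing notes. Gene identifiers in the file are those of a Trinity-type assembly made without a genome. How reads were assembled, quantified and assigned to strands is not stated in the labels or headers.

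Genes passing edgeR's filterByExpr (minimum count 10, minimum total 15) numbered 70,022. The edgeR quasi-likelihood test (edgeR 4.0.16, R 4.3.3, TMM factors) was fitted on all 18 libraries in 6 groups, which gives 12 residual degrees of freedom, and MH minus Ken at 25 °C was tested with Benjamini-Hochberg adjustment over all tested genes at 0.05. MH against Ken after heat and the interactions came from the same fit. Summed TPM, medians, counts and figures were made with Python 3.11.15, pandas 2.3.3 and matplotlib 3.10.9. DESeq2 1.42.0, other scalings and filters, the controls alone, a replicate block, sums over clusters or descriptions, and leaving out each library were alternatives. On data simulated for this comparison with 64,351 genes, 100 were changed 4-fold and 100 were changed 2-fold. The test called 47% of the 4-fold and 8% of the 2-fold changes, with 3 false calls among 58. Far fewer genes were changed there than were called in the real data, and the adjustment is stricter when few genes change. These shares therefore do not measure what the real comparison missed. The p-values measure the spread between libraries labelled as biological replicates.

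Gene lists are text patterns on the descriptions. Named genes were, from each of 22 core lists and in each direction, the called member with the smallest adjusted p among those without overlap and averaging 10 TPM or more where it was higher (the most abundant tested member where none qualified), plus the 8 largest differences in each direction and the 8 most abundant called genes. The same choice in the other lists, and examples from families, were made after values were seen. The comparison, its lists and its rules were all chosen with earlier results of these data known. A gene that the rule names is not reported here.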

Additional observations from a re-analysis of the deposited data

Results flagged for a closer look

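For 3 of the entries with the largest differences at 25 °C, the MH minus Ken difference changed after heat by the interaction test of the 6-group edgeR fit. NCS2 (TRINITY_DN34934_c1_g4) had 0 counts in unheated Ken and a mean of 0.537 TPM in Ken at 38/33 °C and 0.24 at 40/35 °C, while MH went from 82.4 to 59.4 and 36.2 TPM. Its log2 difference changed by -7.36 ± 1.27 (adjusted p = 0.0013) at 38/33 °C and by -7.39 ± 1.41 (adjusted p = 0.00109) at 40/35 °C. HMA2 (TRINITY_DN62013_c1_g7) had 0 counts in unheated MH, and in Ken it went from 21.3 to 5.21 and 2.50 TPM. Its difference changed by 5.45 ± 1.64 (adjusted p = 0.0354) and by 6.37 ± 1.65 (adjusted p = 0.00813). PUB33 (TRINITY_DN40711_c0_g4) averaged 2.38 TPM in MH at 40/35 °C against 85.8 in Ken, and its difference changed by 5.46 ± 0.68 (adjusted p = 1.00e-05). These sizes rest on a group at or near 0 counts at 25 °C and depend on the small count that the fit adds, so they are no measure of fold. All 3 entries kept their direction between the materials after heat, with adjusted p from 2.78e-12 to 2.92e-08. Why they changed was not tested.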

How the results depend on the processing

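The 15,276 calls numbered 9,068 at an adjusted p below 0.01 (4,067 higher in MH, 5,001 in Ken), 3,377 of 9,497 sums per description (1,739 and 1,638), 9,811 of 36,542 sums per cluster (4,534 and 5,277) and 8,314 with described genes only (4,124 and 4,190). Leaving out each library in turn gave 11,279 to 12,929 calls, 4,779 to 6,335 in MH and 6,156 to 6,653 in Ken, and 4,081 to 4,558 calls kept at both heated regimes against 5,049. DESeq2 called 16,946 (9,084 and 7,862), of which 14,521 were shared, all in the same direction. MH was ahead under DESeq2, RLE scaling, TMM on described genes, controls alone and, narrowly, library totals (7,498 and 7,494), whereas Ken was ahead in the main test. The numbers do not pair the libraries: deviations of same-numbered libraries correlated at -0.01, 0.02 and 0.00, and with the replicate block 15,099 genes were called (7,536 and 7,563) against 16,115 without it in the controls alone.

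Summed per description, these entries changed sign: HSP18.1 (TRINITY_DN37313_c2_g1) to 0.99, mitochondrial HSP70 (TRINITY_DN52413_c0_g2) to 0.13, the RPS2 entries TRINITY_DN62041_c0_g1 and TRINITY_DN46653_c2_g6 to 0.77, HMA2 to 0.32, BGLU22 to 0.93, TRINITY_DN40298_c2_g1 to 0.60, ZSS1 entry TRINITY_DN56166_c0_g3 to 2.43 and TRINITY_DN54205_c0_g4 to -3.46. Per cluster, CYP71A21 went to 0.53, XTH30 to 1.75 and TRINITY_DN54205_c0_g4 to -0.94. By construction a sum adds the other entries of that description or cluster. In the simulated data, where far fewer genes changed than were called here, most 2-fold differences were missed. How many the real comparison missed was not measured.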

Other observations

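Further gene groups held calls in both directions. In the proteasome, which degrades tagged proteins, 6 of 83 tested members were higher in MH and 10 in Ken. RPN11, the lid enzyme that removes ubiquitin, stood at 116, 137 and 119.8 TPM in MH and 55.9, 62.9 and 65.3 TPM in Ken (log2 difference 1.002 ± 0.20, adjusted p = 7.87e-04). The core subunit PAA1 stood at 60.5, 67.8 and 51.2 TPM in MH and 108, 101 and 99.9 TPM in Ken (log2 difference -0.90 ± 0.15, adjusted p = 1.07e-04). For proteasome subunits the counts in MH and Ken were 6 and 6 without MH replicate 3, 7 and 7 with RLE scaling, 10 and 13 with the controls fitted alone. In nitrogen uptake and assimilation 18 of 97 tested members were higher in MH and 13 in Ken. For nitrogen uptake and assimilation the counts in MH and Ken were 32 and 18 with the controls fitted alone. Among photoreceptors and light signalling genes 5 of 50 tested members were higher in MH and 3 in Ken. For photoreceptors and light signalling the counts in MH and Ken were 3 and 2 without Ken replicate 2 or MH replicate 3, 4 and 1 without Ken replicate 1 or MH replicate 1, 5 and 1 without MH replicate 2. Other counts were 6 and 2 with RLE scaling or with TMM factors of described genes, 14 and 5 with the controls fitted alone. Among HSP100 and Clp proteins 3 of 38 tested members were higher in MH and 8 in Ken. For HSP100 and Clp proteins the counts in MH and Ken were 3 and 5 without MH replicate 2, 4 and 6 with RLE scaling, 4 and 14 with the controls fitted alone.

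Tissue markers did not move as one. Of phloem markers 1 of 10 tested members were higher in MH and 5 in Ken, with sums of 111, 142 and 136 TPM in MH and 157, 144 and 162 TPM in Ken. For phloem markers the counts in MH and Ken were 0 and 1 without Ken replicate 1 or 3, 0 and 2 without Ken replicate 2 or MH replicate 1 or 2, 1 and 2 without MH replicate 3 or with TMM factors of described genes. Other counts were 1 and 3 with RLE scaling. SEOA, a sieve element protein, was higher in MH (16.1, 16.7 and 12.1 TPM in MH and 5.22, 3.47 and 4.69 TPM in Ken; log2 difference 1.73 ± 0.54, adjusted p = 0.0262). SEOA lost its call without Ken replicate 1, 2 or 3 or MH replicate 1 or 2 (log2 differences 1.55 to 1.84). NAKR3, a metal-binding protein, was higher in Ken (20.9, 30.4 and 23.3 TPM in MH and 42.4, 51.2 and 52.0 TPM in Ken; log2 difference -1.41 ± 0.44, adjusted p = 0.0325). NAKR3 lost its call without any 1 of the 6 libraries (log2 differences -1.65 to -1.26). Of xylem markers 3 of 29 tested members were higher in MH and 1 in Ken. For xylem markers the counts in MH and Ken were 0 and 0 without Ken replicate 1 or 3, 1 and 2 without MH replicate 2, 2 and 0 without Ken replicate 2 or MH replicate 1 or 3. Other counts were 5 and 1 with DESeq2, 5 and 2 with the controls fitted alone. CESA8, of secondary walls, stood at 164, 165 and 132 TPM in MH and 62.05, 92.5 and 68.9 TPM in Ken (log2 difference 1.03 ± 0.34, adjusted p = 0.0412). CESA8 lost its call without any 1 of the 6 libraries (log2 differences 0.91 to 1.18). GL2, a homeobox gene of the epidermis, stood at 8.13, 7.36 and 5.19 TPM in MH and 9.60, 13.3 and 9.14 TPM in Ken (log2 difference -0.80 ± 0.20, adjusted p = 0.00592). Flower organ markers had 2 of 9 higher in each material and sums of 472, 554 and 446 TPM in MH and 277, 308 and 340.3 TPM in Ken. For flower organ markers the counts in MH and Ken were 1 and 1 without MH replicate 3, 1 and 2 without Ken replicate 1, 2 or 3 or MH replicate 1 or 2. Their part in the comparison was not tested.

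Of entries described as the TNT 1-94 mobile element, 1 was higher in each material among the named genes. TRINITY_DN64191_c0_g1 stood at 160.1, 212 and 254 TPM in MH and 26.4, 22.6 and 23.3 TPM in Ken (log2 difference 2.09 ± 0.55, adjusted p = 0.0159). TRINITY_DN64191_c0_g1 lost its call without Ken replicate 1, 2 or 3 or MH replicate 3 (log2 differences 1.89 to 2.13). TRINITY_DN40298_c2_g1 stood at 12.96, 13.8 and 14.7 TPM in MH and 19.1, 24.7 and 28.8 TPM in Ken (log2 difference -0.83 ± 0.27, adjusted p = 0.0297). TRINITY_DN40298_c2_g1 lost its call without Ken replicate 2 or 3 or MH replicate 1, 2 or 3 (log2 differences -0.88 to -0.66), and also with DESeq2 or with library totals. RLE scaling also ended this call (log2 difference -0.71). All 465 entries of the description summed to 816 ± 109.6 TPM in MH and 577 ± 67.2 TPM in Ken, higher in MH (log2 difference 0.60, adjusted p = 0.00829), opposite to this entry. Of virus-like proteins 10 of 60 tested members were higher in MH and 10 in Ken. Fungus-named transcripts summed to 2.76, 10.9 and 10.8 TPM in MH and 12.6, 2.33 and 8.07 TPM in Ken, with 1 tested and 0 called.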
